A study of Mus musculus with 8 samples.

Results

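The genes described here fill, empty and read the calcium store of the endoplasmic reticulum in pancreatic islets, the small organs that secrete insulin and other hormones. They are 9 genes, picked by symbol out of the 35596 genes measured: the pumps Atp2a2 and Atp2a3, the release channels Ryr2, Itpr1 and Itpr3, the store sensor Stim1 with its channel Orai1, and the calcium readers Calm2 and Camk2b. All 9 were found in the expression table, each in 1 row. In beta cells, calcium that enters through the plasma membrane triggers insulin release, and SERCA pumps keep the endoplasmic reticulum filled from the cytosol. Channels opened by inositol trisphosphate (IP3) or by calcium itself let the store empty again, and a STIM protein senses the fall and opens ORAI channels to refill it. Calmodulin binds the calcium that reaches the cytosol and passes the signal to kinases and phosphatases such as CaMKII and calcineurin.

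Islet RNA came from male C57BL/6J mice, an inbred strain, whose age the labels do not give, with 4 libraries in each of 2 groups. Weight-cycled mice had 9 weeks on a 60% fat diet, 9 weeks on a 10% fat diet and a last 9 weeks on the 60% fat diet. Obese mice had 9 weeks on the 10% diet and then an unbroken 18 weeks on the 60% diet. Total time on the 60% diet was thus 18 weeks in both, while its last unbroken stretch was 9 weeks in weight-cycled mice and 18 weeks in obese mice, and the design cannot tell the order of the diets apart from the length of that stretch. Neither a lean group nor a group without the 60% diet was analysed here. Whether the libraries are separate animals is not stated in the labels, and the spread that p-values rest on may thus be technical.

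Levels are in TPM, which count transcripts per length of transcript and add up to the same total in every library. A gene's TPM is therefore relative to the rest of its library, and the depth behind it is unknown. In whole islets, fewer cells of a type and less RNA per cell cannot be told apart. Fold changes are log2 fold changes, weight-cycled minus obese, on the log2(TPM + 1) scale, which understates the change of low genes. They were tested with limma over the 8127 genes whose mean was at least 1 TPM, and a call means a Benjamini-Hochberg adjusted p under 0.05. The median gene lay at -0.26 on this scale, and 85.5% of all tested genes lay below 0, so for called genes the fold change relative to that median or after median-of-ratios scaling is given as well. Over all tested genes 25.2% were called, 23.9% as lower and 1.21% as higher in weight-cycled islets.

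Beta-cell markers dominated every library, with Ins1 and Ins2 together at 75.4% to 78.8% of all TPM. Summed markers of acinar cells were at 3321 to 7707 TPM in weight-cycled and 2617 to 4829 TPM in obese libraries, and those of macrophages at 44.7 to 55.9 TPM in weight-cycled and 58.1 to 74.8 TPM in obese libraries, without overlap. Of the tested markers, 6 of 10 beta-cell, 3 of 7 macrophage and 2 of 5 duct genes were called lower, beside 23.9% of all tested genes. None of these markers was called higher. Of 8 alpha-cell genes 1 was lower and 2 higher, and 0 of 12 acinar genes were called. Endothelial markers were at 34.3 to 65.3 TPM in weight-cycled and 56.8 to 92.4 TPM in obese libraries, with 2 of 9 called lower. The acinar factor Ptf1a was under 0.1 TPM in every library, and Adipoq, Lep and Cfd of fat cells were listed at 0. The part of these cells in the results below was not tested. Libraries also differed in how a gene's deviation from its mean went with transcript length. Spearman's correlation across genes was -0.283 to -0.399 in weight-cycled replicates 2 to 4, but 0.345 in weight-cycled replicate 1 and 0.183 to 0.375 in the obese libraries. Weight-cycled replicate 1 thus stood with the obese libraries in this respect, and it was also the highest weight-cycled library for 7 of the 9 genes.

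Of the 9 genes, 7 passed the filter on low levels and were tested. Atp2a2, Itpr1 and Camk2b were called lower in weight-cycled islets, Atp2a3, Stim1, Orai1 and Calm2 were not called, and none was called higher. Those 3 of 7 stand beside the 23.9% of all tested genes called lower. The median fold change of the 7 was -0.42, against -0.26 for all tested genes. The calls were sensitive to single libraries. None of the 3 passed without weight-cycled replicate 2, 3 or 4 or without obese replicate 1, 2 or 3, when at most 71 genes in all were called. Without obese replicate 4, Atp2a2 and Camk2b still passed, and without weight-cycled replicate 1 the 5 genes Atp2a2, Atp2a3, Itpr1, Stim1 and Camk2b passed as lower, beside 54.4% of all tested genes; the share without obese replicate 4 was 20.6%. Scaling each library by its median ratio to the others, which moved the median gene to -0.01, left 0 of the 7 called by limma, beside 0.571% of all tested genes called lower and 1.29% higher. Atp2a2, Itpr1 and Camk2b were still lower at an unadjusted p under 0.05, as were 1102 of all 8054 genes tested after that scaling. Removing the trend with transcript length from each library also left 0 called, beside 1.53% of all tested genes called lower and 1.78% higher, with those 3 again lower at an unadjusted p under 0.05.

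**Figure D1:**
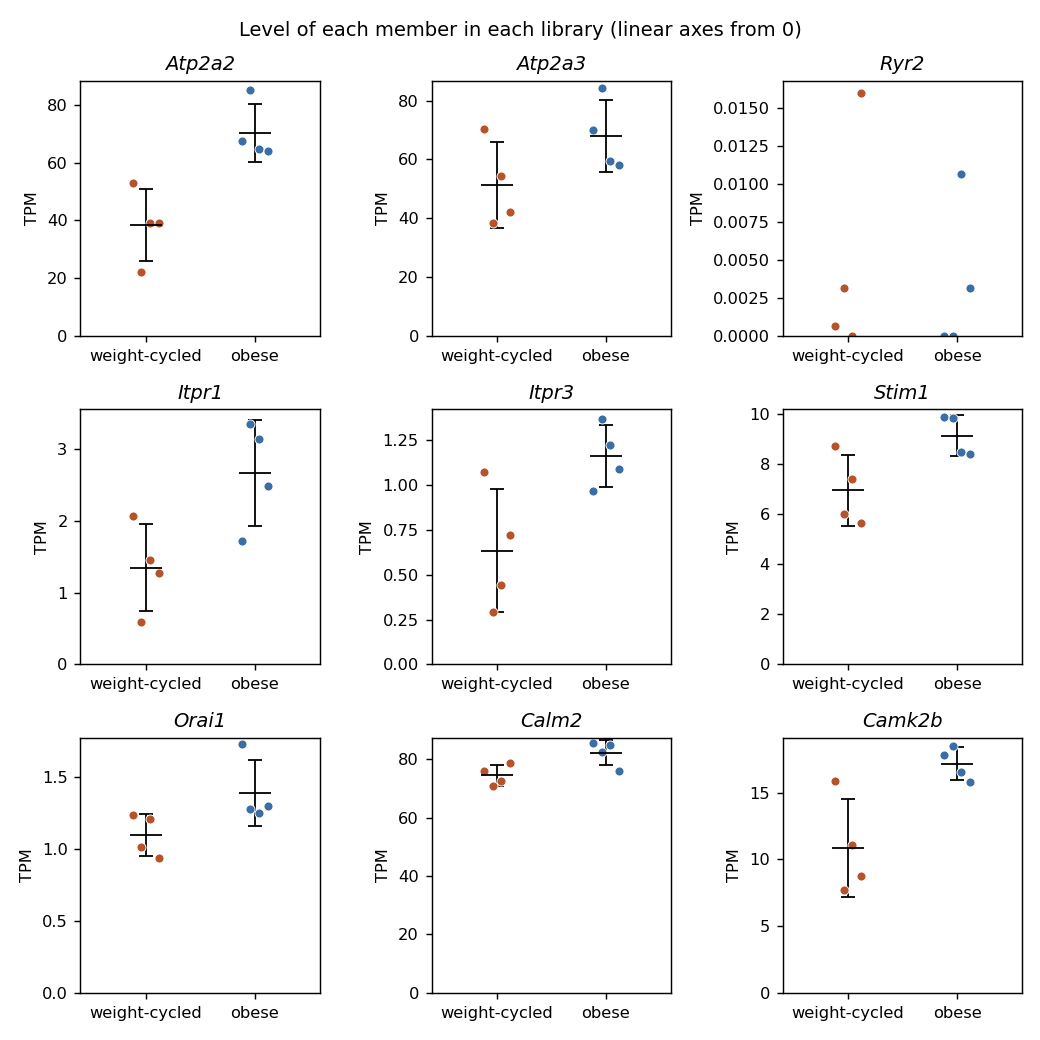
TPM of each of the 9 calcium store genes in the 4 weight-cycled libraries (left, orange) and the 4 obese libraries (right, blue), 1 point a library, with lines at the mean and bars of 1 SD except for Ryr2. Every obese library lay above every weight-cycled library for Atp2a2 and Orai1, and Ryr2 stayed under 0.02 TPM in all 8 libraries.

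The pumps come first, and they were the most abundant of these genes after Calm2. Atp2a2 (ENSMUSG00000029467.15, minus strand of chromosome 5, 122453513 to 122502225, build mm10) encodes SERCA2, the SERCA pump that most cell types use. It was at 52.8, 22.3, 39.3 and 39.1 TPM in weight-cycled replicates 1 to 4, against 67.5, 85.2, 64.6 and 63.9 TPM in obese replicates 1 to 4. The groups did not overlap, and weight-cycled replicate 2 was lowest and obese replicate 2 highest. The mean was 38.4 ± 12.5 TPM in weight-cycled and 70.3 ± 10.0 TPM in obese islets (SD, n = 4 each), and limma put the log2 fold change at -0.91 (SE 0.206, adjusted p = 0.0321), or -0.65 relative to the median gene. Among the 7 tested genes this was the largest fold change on the scale used. After median-of-ratios scaling the fold change was -0.58 (limma adjusted p = 0.0759), after removal of the length trend -0.55 (limma adjusted p = 0.0628), and after quantile scaling it was still called at -0.82 (limma adjusted p = 0.0464). Without weight-cycled replicate 2 it was -0.68, and without weight-cycled replicate 1 it was -1.08.

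Atp2a3 (ENSMUSG00000020788.15, plus strand of chromosome 11, 72961169 to 72993044) encodes SERCA3, a pump of lower calcium affinity that beta cells carry beside SERCA2. Its level was 70.5, 38.4, 54.3 and 42.0 TPM in weight-cycled replicates 1 to 4, against 69.9, 84.3, 59.3 and 58.0 TPM in obese replicates 1 to 4. Weight-cycled replicate 1 lay above 3 of the obese libraries, while the other weight-cycled libraries lay below all of them. The means were 51.3 ± 14.5 TPM in weight-cycled and 67.9 ± 12.2 TPM in obese islets, and the fold change of -0.42 was not called (SE 0.179, limma adjusted p = 0.0847). After scaling by median ratios it was -0.10 and after length-trend removal -0.05.

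The pump genes lie on different chromosomes and their transcripts are of like length, at a median of 4235 bases for Atp2a2 and 4540 bases for Atp2a3 over protein-coding transcripts. Salmon tells their reads apart by sequence. Their coding sequences were identical at 69.4% of 3111 aligned bases, and the longest run of bases shared by their transcripts was 44.

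The balance between the pumps does not depend on how a library is scaled, since both levels come from the same library. There were 0.749, 0.581, 0.723 and 0.931 Atp2a2 transcripts for each Atp2a3 transcript in weight-cycled replicates 1 to 4, against 0.965, 1.01, 1.09 and 1.10 in obese replicates 1 to 4. Every weight-cycled library lay below every obese one, weight-cycled replicate 1 included. Atp2a2 made up 42.4% ± 4.69 of SERCA message in weight-cycled and 51.0% ± 1.56 in obese islets (SD, n = 4 each). The log2 ratio was -0.44 ± 0.278 in weight-cycled and 0.06 ± 0.0904 in obese islets, a difference of -0.50. The interval of shifts that the exact permutation test did not reject at 0.05 was -0.92 to -0.06. The exact two-sided permutation p was 0.0286, the smallest that 4 libraries against 4 can give. After adjustment over the 7 ratios tested it was 0.2, so the difference did not pass the correction. A single ratio at the smallest p could not have passed it, so that outcome was set by the design. The difference was -0.51 after length-trend removal and between -0.61 and -0.39 when each library was left out.

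The release channels were far less abundant than the pumps. Ryr2 (ENSMUSG00000021313.16, minus strand of chromosome 13, 11553102 to 12106945) encodes the ryanodine receptor of heart muscle, which calcium opens. It was listed at 0.000661, 0.00312, 0 and 0.016 TPM in weight-cycled replicates 1 to 4, against 0, 0, 0.0107 and 0.00318 TPM in obese replicates 1 to 4. With 1 weight-cycled and 2 obese libraries listed at 0 it was below the filter and was not tested, and no fold change is given. Its relatives Ryr1 and Ryr3 stayed at or under 0.00115 and 0.017 TPM in every library.

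Itpr1 (ENSMUSG00000030102.11, plus strand of chromosome 6, 108213096 to 108551109) encodes the type 1 IP3 receptor, a store channel that opens when IP3 and calcium bind. It was at 2.07, 0.593, 1.46 and 1.28 TPM in weight-cycled replicates 1 to 4, against 1.71, 3.35, 3.14 and 2.48 TPM in obese replicates 1 to 4. The groups overlapped through weight-cycled replicate 1, which lay above obese replicate 1. The means were 1.35 ± 0.608 TPM in weight-cycled and 2.67 ± 0.738 TPM in obese islets, a fold change of -0.66 (SE 0.20, limma adjusted p = 0.0416), or -0.40 relative to the median gene. Itpr1 has short and long annotated transcripts, with a median of 807 bases and a longest coding one of 9870 bases, and the length correction depended on which was used. It gave -0.52 by the median length and -0.24 by the longest (limma adjusted p = 0.118 and limma adjusted p = 0.301), against -0.46 after median-of-ratios scaling (limma adjusted p = 0.134).

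Itpr3 (ENSMUSG00000042644.9, plus strand of chromosome 17, 27057304 to 27122223) encodes the type 3 IP3 receptor, a channel of the same family. Its level was 1.07, 0.290, 0.445 and 0.724 TPM in weight-cycled replicates 1 to 4, against 0.965, 1.37, 1.22 and 1.09 TPM in obese replicates 1 to 4. Weight-cycled replicate 1 lay above obese replicate 1, and the other weight-cycled libraries lay below all obese ones. Its mean over all libraries was under 1 TPM, so it was not tested in the main comparison. In the fit without a filter its fold change was -0.42, with an unadjusted p of 0.0239 and a limma adjusted p of 0.127. The third family member, Itpr2, was lower still at 0.270 ± 0.105 TPM in weight-cycled and 0.422 ± 0.124 TPM in obese islets.

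The 3 IP3 receptors together were at 2.25 ± 1.01 TPM in weight-cycled and 4.25 ± 1.02 TPM in obese islets, and the SERCA pumps together at 89.7 ± 26.2 TPM in weight-cycled and 138 ± 21.9 TPM in obese islets. On the TPM scale, libraries of either group held at least 25.8 times as many SERCA as release channel transcripts, the lowest library being obese replicate 3. The log2 ratio of the pumps to the release channels differed by 0.35, with overlap and an interval of -0.41 to 1.13. It was 0.62 after length-trend removal and turned to -0.24 on TPM + 1. Itpr1 made up 59.7% ± 7.22 of IP3 receptor message in weight-cycled and 62.3% ± 3.52 in obese islets. The log2 ratio of Itpr1 to Itpr3 differed by -0.04 between weight-cycled and obese islets, with an interval of -0.54 to 0.88 (exact permutation p = 0.886, n = 4 each). It was -0.23 without weight-cycled replicate 3 and on TPM + 1, and 0.10 after length-trend removal. Changes in either direction within the interval of -0.54 to 0.88 were not rejected by the permutation test.

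**Figure D2:**
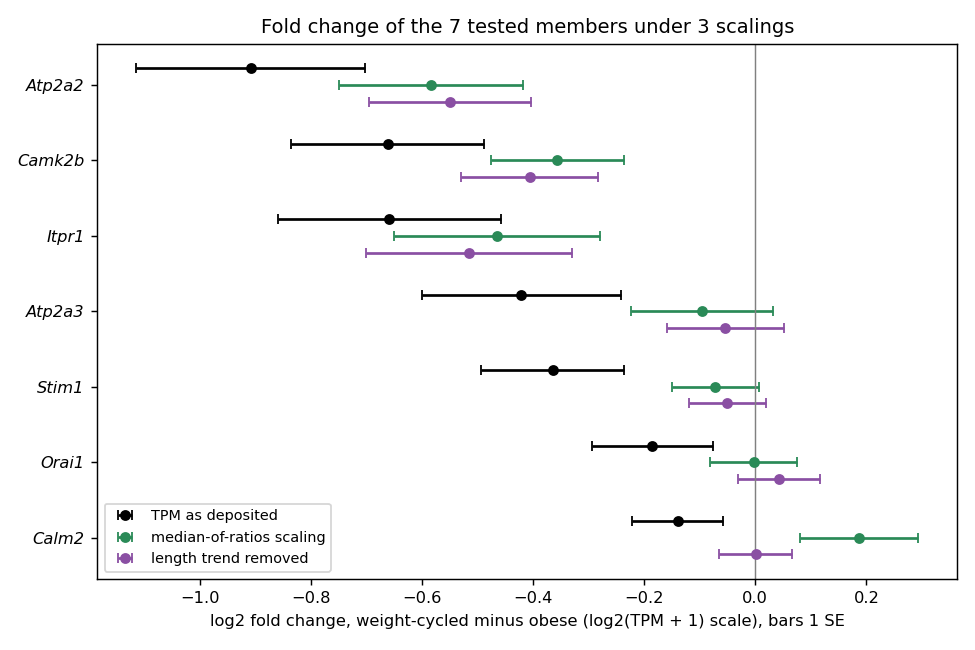
Log2 fold change, weight-cycled minus obese on the log2(TPM + 1) scale, of the 7 tested genes, with bars of 1 SE. Each gene has 3 values: TPM as deposited (black), after median-of-ratios scaling (green) and after the transcript-length trend was taken out of each library (purple). Atp2a2, Camk2b and Itpr1 stayed below 0 under all 3, at -0.36 or lower, while Atp2a3, Stim1, Orai1 and Calm2 moved to between -0.10 and 0.19.

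Refilling of the store depends on Stim1 and Orai1. Stim1 (ENSMUSG00000030987.5, plus strand of chromosome 7, 102267806 to 102437319) encodes the sensor whose luminal end binds calcium and which gathers beneath the plasma membrane when the store runs low. It was at 8.72, 5.99, 7.41 and 5.66 TPM in weight-cycled replicates 1 to 4, against 9.86, 9.83, 8.48 and 8.38 TPM in obese replicates 1 to 4. Only weight-cycled replicate 1 reached into the obese range. The means were 6.95 ± 1.41 TPM in weight-cycled and 9.14 ± 0.819 TPM in obese islets, and the fold change of -0.36 was not called (SE 0.129, limma adjusted p = 0.0535). With the median-of-ratios scaling it was -0.07, and with the length trend removed -0.05. Its relative Stim2, which responds to smaller falls in store calcium, was at 0.976 ± 0.371 TPM in weight-cycled and 1.42 ± 0.0706 TPM in obese islets and was not called either (limma adjusted p = 0.0866). Stim1 made up 87.9% ± 2.44 of STIM message in weight-cycled and 86.5% ± 0.934 in obese islets.

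Orai1 (ENSMUSG00000049686.14, plus strand of chromosome 5, 123015074 to 123030456) encodes the pore of the channel that STIM1 opens. It was at 1.23, 1.01, 1.21 and 0.936 TPM in weight-cycled replicates 1 to 4, against 1.73, 1.28, 1.25 and 1.30 TPM in obese replicates 1 to 4. The groups did not overlap, though by a gap smaller than the spread within either group, and obese replicate 1 stood above the rest. Orai1 and Atp2a2 were the 2 of the 7 tested genes without overlap, both lower, beside 21.1% of all tested genes. The means were 1.10 ± 0.147 TPM in weight-cycled and 1.39 ± 0.229 TPM in obese islets, and the fold change of -0.19 was not called (SE 0.109, limma adjusted p = 0.183). It was 0.00 after median-of-ratios scaling and turned to 0.04 after length-trend removal. Of ORAI message, Orai3 made up most, at 75% ± 1.5 in weight-cycled and 73.8% ± 1.22 in obese islets, and Orai1 17.3% ± 0.717 in weight-cycled and 17.1% ± 1.79 in obese islets.

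Stim1 message outnumbered Orai1 message in every library, where Orai1 was the smaller part of ORAI message (17.3% in weight-cycled and 17.1% in obese islets). Orai3, the largest part, was at 4.75 ± 0.492 TPM in weight-cycled and 5.98 ± 0.625 TPM in obese islets. There were 7.07, 5.92, 6.12 and 6.04 Stim1 transcripts for each Orai1 transcript in weight-cycled replicates 1 to 4, against 5.70, 7.71, 6.79 and 6.45 in obese replicates 1 to 4. The groups overlapped, and the log2 ratio differed by -0.08 with an interval of -0.38 to 0.30 (exact permutation p = 0.486, n = 4 each). It was -0.0049 without obese replicate 2 and -0.15 without obese replicate 1. The log2 ratio of Stim1 to Stim2 differed by 0.20, with an interval of -0.25 to 0.82 (exact permutation p = 0.371, n = 4 each). It was 0.0407 if weight-cycled replicate 2 was left out and 0.31 without replicate 1 of that group.

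Calm2 (ENSMUSG00000036438.13, minus strand of chromosome 17, 87433412 to 87446935) encodes calmodulin, and Calm3 on chromosome 7 encodes the same protein. Their messages differ in bases but not in the protein they spell, and coding bases 46 to 135, which take in the first of the calcium-binding loops, show how. Both are printed from the GENCODE M21 transcripts on the coding strand, 5′ to 3′, with the 16 positions that differ in capitals.
Calm2: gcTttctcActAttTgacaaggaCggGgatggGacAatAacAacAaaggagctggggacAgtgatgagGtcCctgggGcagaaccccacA
Calm3: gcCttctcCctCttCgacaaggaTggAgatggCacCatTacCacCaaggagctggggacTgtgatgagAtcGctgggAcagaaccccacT
Over the 450 coding bases Calm2 was identical to Calm3 at 82.7%, with a longest shared run between transcripts of 17 bases, so that reads of the pair can be told apart by sequence.

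Calm2 was at 76.1, 70.8, 72.4 and 78.7 TPM in weight-cycled replicates 1 to 4, against 85.4, 82.5, 84.8 and 76.0 TPM in obese replicates 1 to 4. Obese replicate 4 lay within the weight-cycled range, and both groups were tight. The means were 74.5 ± 3.55 TPM in weight-cycled and 82.2 ± 4.30 TPM in obese islets, and the fold change of -0.14 was not called (SE 0.0819, limma adjusted p = 0.180). Its direction turned with the scaling: it was 0.12 relative to the median gene, 0.19 after median-of-ratios scaling (limma adjusted p = 0.248) and 0.00 after length-trend removal.

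Calm3 was called lower. It was at 44.5, 34.8, 36.6 and 34.0 TPM in weight-cycled replicates 1 to 4, against 51.7, 49.0, 47.6 and 43.2 TPM in obese replicates 1 to 4. The groups overlapped through weight-cycled replicate 1, which lay above obese replicate 4. The means were 37.5 ± 4.78 TPM in weight-cycled and 47.9 ± 3.58 TPM in obese islets, a fold change of -0.35 (SE 0.103, limma adjusted p = 0.0397), which was -0.09 relative to the median gene and -0.03 after median-of-ratios scaling.

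**Figure D3:**
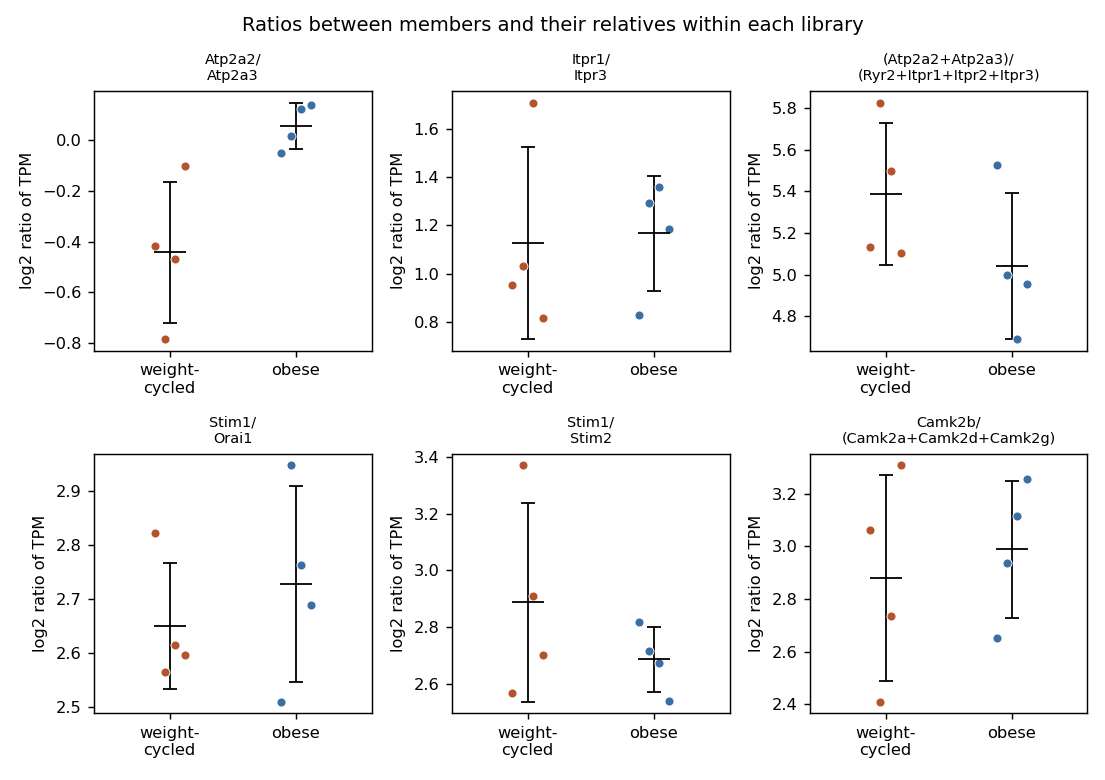
Log2 ratio of TPM within each library for 6 ratios, weight-cycled libraries on the left (orange) and obese libraries on the right (blue), with lines at the mean and bars of 1 SD, each panel on its own axis. Of these, the Atp2a2 to Atp2a3 ratio is the one without overlap, from 0.581 to 0.931 on the linear scale in weight-cycled libraries and 0.965 to 1.10 in obese libraries.

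Camk2b (ENSMUSG00000057897.14, minus strand of chromosome 11, 5969644 to 6066362) encodes the beta subunit of CaMKII, a kinase that calcium-bound calmodulin switches on. It was at 15.9, 7.67, 11.1 and 8.76 TPM in weight-cycled replicates 1 to 4, against 17.8, 18.5, 16.5 and 15.8 TPM in obese replicates 1 to 4. Weight-cycled replicate 1 was level with the lowest obese library and the other weight-cycled libraries lay well below. The means were 10.8 ± 3.65 TPM in weight-cycled and 17.2 ± 1.25 TPM in obese islets, a fold change of -0.66 (SE 0.174, limma adjusted p = 0.0345), or -0.40 relative to the median gene. It was -0.36 after median-of-ratios scaling (limma adjusted p = 0.101) and -0.41 after length-trend removal (limma adjusted p = 0.0845), and -0.85 without weight-cycled replicate 1.

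Camk2b was the main CaMKII gene of these islets, with 87.8% ± 2.91 of CaMKII message in weight-cycled and 88.7% ± 1.84 in obese islets. Camk2d was at 1.0 ± 0.323 TPM in weight-cycled and 1.47 ± 0.432 TPM in obese islets and was not called (limma adjusted p = 0.138). Camk2g, at 0.417 ± 0.0801 TPM in weight-cycled and 0.724 ± 0.134 TPM in obese islets, was below the filter, as was Camk2a. The log2 ratio of Camk2b to the other 3 differed by -0.11, with an interval of -0.84 to 0.65 (exact permutation p = 0.686, n = 4 each). It was 0.0465 if weight-cycled replicate 2 was left out, -0.25 without replicate 4 of that group and -0.44 on TPM + 1 (exact permutation p = 0.0571).

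In TPM, the order of levels was nearly alike in both groups. Calm2 stood first, above the pumps in every weight-cycled library and overlapping both in obese libraries. Atp2a3 came before Atp2a2 in weight-cycled and after it in obese islets, and the ranges of the pumps overlapped in both groups. Camk2b followed, below both pumps in every library, and then Stim1, which overlapped Camk2b in weight-cycled libraries and not in obese ones. Itpr1, Orai1 and Itpr3 came next, in that order, and each overlapped its neighbour in both groups, with Ryr2 far below.

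The genes with the most similar profiles were found by the root-mean-square difference between centred log2(TPM + 1) values over the 8 libraries. The nearest to Atp2a2 was Acly, which makes acetyl-CoA for lipid synthesis, at a difference of 0.0865, where the profile of Atp2a2 itself spread by 0.561 about its mean. Nearest to Camk2b was Ppm1l, a protein phosphatase gene, at 0.0486 of a spread of 0.424, and nearest to Itpr1 was Ankhd1 at 0.118 of 0.449. Stim1 was nearest to Myadm, Atp2a3 to Ankrd13a, Orai1 to Ppt2 and Calm2 to Bex2.

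The wider calcium machinery was described with 172 more genes in 10 lists, of which 170 were in the table and 95 were tested. Of these 35 were called lower, 2 higher and 58 were not called, beside 23.9% of all tested genes called lower and 1.21% higher. The median of the 95 was -0.32 against -0.26 for all tested genes. After median-of-ratios scaling 2 were lower (Camk2n1 and Itpkb) and 3 higher (Tmem38a, Nucb2 and Tmem203), beside 0.571% and 1.29% of all tested genes. After length-trend removal 4 were lower (Camk2n1, Itpkb, Ahcyl1 and Mfn2) and 6 higher, beside 1.53% and 1.78% of all tested genes. Nucb2, a calcium-binding protein of the Golgi and the secretory path, and Tmem203, a store membrane protein, were named after their values were seen. Without weight-cycled replicate 1, 57 were lower and 3 higher, beside 54.4% of all tested genes called lower. Without weight-cycled replicate 2 or 3 or obese replicate 2 or 3, Camk2n1 was the 1 gene of these lists that limma called. Without weight-cycled replicate 4 or obese replicate 1 limma called 0, with 43 and 42 lower at an unadjusted p under 0.05. At that unadjusted p, 3029 of 8217 and 2670 of 8010 of all tested genes passed in either direction.

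**Figure D4:**
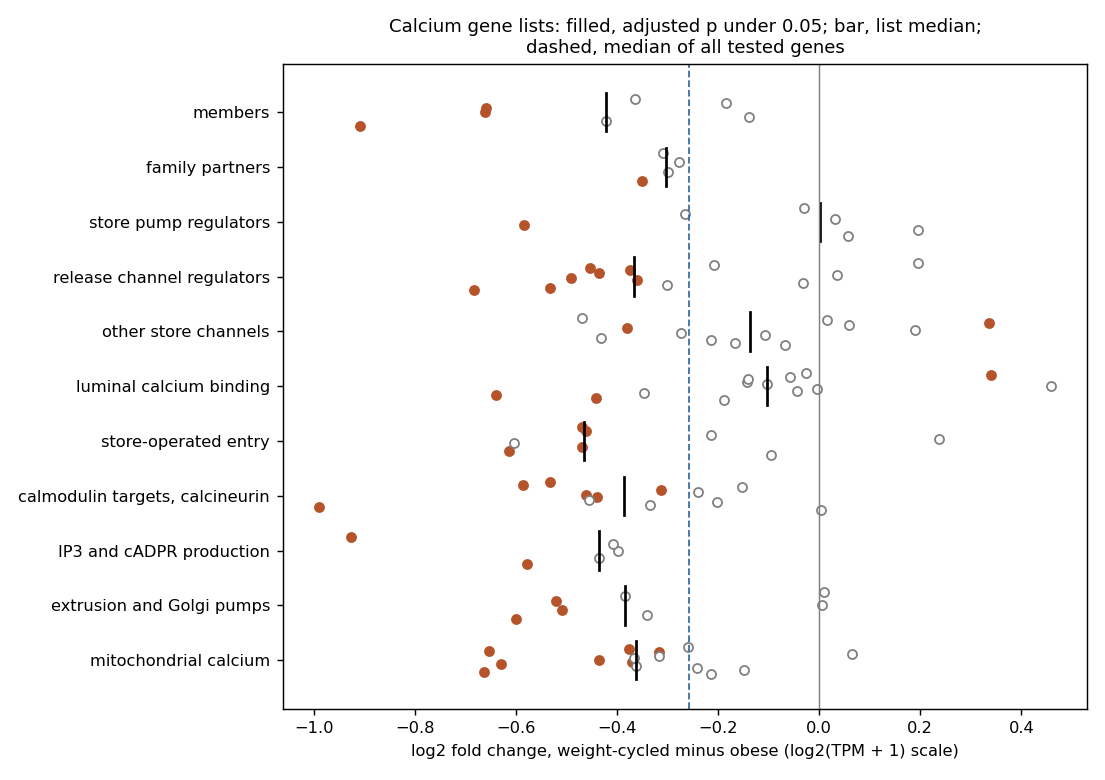
Log2 fold change, weight-cycled minus obese on the log2(TPM + 1) scale, of each tested gene reported from the calcium lists. The 7 tested store genes are in the top row (members). Filled points have an adjusted p under 0.05, short bars mark list medians and the dashed line marks the median of all tested genes at -0.26. The 2 filled points above 0 are Tmem38a and Sdf4.

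Among regulators of the pumps, 10 genes were in the table and 6 were tested. Of these 1 was lower and 0 higher, beside 23.9% and 1.21% of all tested genes. The median of the 6 was 0.00, which was 0.32 after median-of-ratios scaling. The lower one was Ptpn1, a tyrosine phosphatase of the endoplasmic reticulum, at -0.58 (SE 0.138, limma adjusted p = 0.0322) and, after that scaling, at -0.31 with no call. Named after its values were seen, Mrln encodes myoregulin, a micropeptide that inhibits SERCA in mouse skeletal muscle. It was at 121, 127, 166 and 194 TPM in weight-cycled replicates 1 to 4, against 120, 144, 129 and 130 TPM in obese replicates 1 to 4, more than either pump gene. Weight-cycled replicates 3 and 4 were highest and the groups overlapped. The fold change was 0.20 and was not called (SE 0.141, limma adjusted p = 0.271).

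Of 23 genes listed here as regulators of the release channels, 12 were tested and 7 were lower, beside 23.9% of all tested genes. The median of the 12 was -0.37. After median-of-ratios scaling limma called 0 lower, and the median of the 12 was -0.06. At an unadjusted p under 0.05, 3 were lower, beside 1102 of all 8054 genes tested after that scaling. The 7 included Ahcyl1, whose product IRBIT competes with IP3 for its receptor. Ahcyl1 was at 8.43 ± 2.22 TPM in weight-cycled and 13.9 ± 1.27 TPM in obese islets. The fold change was -0.68 (SE 0.149, limma adjusted p = 0.0303), and -0.38 after that scaling (limma adjusted p = 0.0694). Fkbp1a fell by 0.44 and Fkbp1b by 0.37 on the log2 scale (limma adjusted p = 0.0317 and limma adjusted p = 0.0353). After that scaling Fkbp1a was at -0.11 and Fkbp1b at -0.05 (limma adjusted p = 0.348 and limma adjusted p = 0.804). Their products are the immunophilins that bind ryanodine receptors in muscle. Selenon, a selenoprotein of the store, was at -0.45 (limma adjusted p = 0.0409) and at -0.21 after scaling, with no call.

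Genes for IP3 production and removal were mostly too low to test. Of the 20 genes measured, 5 were tested and 2 were lower, beside 23.9% of all tested genes. The median of the 5 was -0.44, which was -0.22 after median-of-ratios scaling. Itpkb, the kinase that adds a phosphate to IP3 and ends its action on the receptor, was at 3.16 ± 1.19 TPM in weight-cycled and 6.70 ± 0.947 TPM in obese islets. Its fold change was -0.93 (SE 0.186, limma adjusted p = 0.0302), and it was called after median-of-ratios scaling at -0.67 (limma adjusted p = 0.0442) and after length-trend removal at -0.52 (limma adjusted p = 0.0369). Gna11, a G protein that activates phospholipase C, was at -0.58 (limma adjusted p = 0.0303) and at -0.28 after that scaling, with no call.

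Other store channels included 1 of the 2 genes called higher. Of 15 genes 12 were tested, with 1 lower and 1 higher, beside 23.9% and 1.21% of all tested genes. The median of the 12 was -0.14, which turned to 0.13 with median-of-ratios scaling and to 0.15 with the length trend removed. Tmem38a encodes TRIC-A, a store channel that carries potassium to balance the charge when calcium leaves. It was at 18.8, 21.4, 20.9 and 23.2 TPM in weight-cycled replicates 1 to 4, against 16.3, 17.8, 16.8 and 15 TPM in obese replicates 1 to 4. Every weight-cycled library, replicate 1 included, lay above every obese one. The fold change was 0.34 (SE 0.0944, limma adjusted p = 0.0367), 0.65 after median-of-ratios scaling (limma adjusted p = 0.0428) and 0.54 after length-trend removal (limma adjusted p = 0.0285). Tmbim6, a store protein that leaks calcium, was lower at -0.38 (limma adjusted p = 0.0445), and at -0.05 after median-of-ratios scaling (limma adjusted p = 0.692).

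Proteins that bind calcium inside the store or the Golgi gave a mixed list. Of 17 genes 13 were tested, 2 were lower and 1 higher, beside 23.9% and 1.21% of all tested genes. The median of the 13 was -0.10, and 11 lay below 0, as did 85.5% of all tested genes. After median-of-ratios scaling the median turned to 0.22 and 3 lay below 0, and after length-trend removal it was 0.12. Sdf4, a calcium-binding protein of the Golgi lumen, was at 147 ± 12.3 TPM in weight-cycled and 116 ± 4.85 TPM in obese islets, a fold change of 0.34 (SE 0.0878, limma adjusted p = 0.0345). It was 0.67 after median-of-ratios scaling (limma adjusted p = 0.0505) and 0.57 after length-trend removal (limma adjusted p = 0.0353). Canx, the membrane chaperone calnexin, was at -0.64 (SE 0.153, limma adjusted p = 0.0324) and at -0.31 after scaling, with no call. Calu, which encodes calumenin, was at -0.44 (limma adjusted p = 0.0449) and at -0.19 after scaling, with no call. Named after their values were seen, the main luminal calcium buffers Calr and Hspa5 were not called, at -0.19 and -0.04 (limma adjusted p = 0.185 and limma adjusted p = 0.819). Both directions turned with the scaling, to 0.14 for Calr and 0.29 for Hspa5 by median ratios, and to 0.08 for Calr and 0.27 for Hspa5 with the length trend removed.

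For store-operated entry beyond STIM and ORAI, 8 of 17 genes were tested and 4 were lower, beside 23.9% of all tested genes. The median of the 8 was -0.47. After median-of-ratios scaling limma called 0 lower and the median was -0.22. At an unadjusted p under 0.05, 4 were lower, beside 1102 of all 8054 genes tested after that scaling. Trpc1, a cation channel subunit, was at 0.909 ± 0.117 TPM in weight-cycled and 1.63 ± 0.102 TPM in obese islets, a fold change of -0.46 (SE 0.0992, limma adjusted p = 0.0303). Esyt1 and Esyt2, the extended synaptotagmins that tether the endoplasmic reticulum to the plasma membrane, were at -0.61 and -0.47 (limma adjusted p = 0.0350 and limma adjusted p = 0.0367). Ubqln1, a ubiquitin-binding shuttle protein, was at -0.47 (limma adjusted p = 0.0420). After that scaling these 4 genes lay between -0.34 and -0.19.

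The list of calmodulin-dependent kinases, calcineurin and related genes held the largest fall among the tested genes of the calcium lists. Of 24 genes 12 were tested and 6 were lower, beside 23.9% of all tested genes, and the median of the 12 was -0.39. After median-of-ratios scaling 1 was lower, beside 0.571% of all tested genes, and the median of the 12 was -0.10. Camk2n1, whose product inhibits CaMKII, was at 33.4, 19.9, 32.2 and 23.4 TPM in weight-cycled replicates 1 to 4, against 58.5, 54.7, 50.2 and 52.3 TPM in obese replicates 1 to 4. All weight-cycled libraries lay far below all obese ones. The fold change was -0.99 (SE 0.149, limma adjusted p = 0.0165), and it was called after median-of-ratios scaling at -0.67 (limma adjusted p = 0.0297) and after length-trend removal at -0.63 (limma adjusted p = 0.0253). In the calcineurin branch, the catalytic subunit Ppp3cb was at -0.46 (limma adjusted p = 0.0353), and the calcineurin regulators Rcan2 and Rcan3 were at -0.59 and -0.53 (limma adjusted p = 0.0367 and limma adjusted p = 0.0322). After that scaling Ppp3cb was at -0.16, Rcan2 at -0.30 and Rcan3 at -0.23, with no call.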

How the data were processed

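Islets picked by hand gave polyadenylated RNA for 8 libraries, as the labels' protocols state. The authors ran Salmon 1.5.2 with build mm10, per the submitters' processing notes, and deposited TPM for each gene. Which annotation was used and how transcripts were summed to genes is not given in the sources used here. Columns summed to 999930 to 999949, so depth is unknown. Of 35596 gene IDs 35527 had a symbol. GENCODE M21 (GRCm38, the same assembly as mm10) gave coordinates, sequences and lengths, the length of a gene being the median over its protein-coding transcripts.

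Genes of at least 1 TPM on average entered a limma fit (version 3.58.1, R 4.3.3, lmFit and eBayes with trend) on log2(TPM + 1), two-sided and without covariates, and p-values were adjusted by Benjamini-Hochberg over all of them at 0.05. Ratios within libraries were compared by exact permutation, with intervals from the shifts that the test did not reject. Of the ratios planned, that of Ryr2 to the IP3 receptors had libraries at 0, so 7 were adjusted together, of which 6 are given. The fit was tested on simulated data.

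The 9 genes and all lists were chosen with earlier results of these data known. Of 181 listed symbols 179 were found, 3 by an older name. Named genes are the 9, their family relatives, up to 4 called genes of smallest p per list, and, of the 2 nearest profiles found per gene, the nearest. A gene of these lists that was fitted and counted is not reported here.

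Alternatives were pseudocounts of 0.1 and 5, no filter or one at 5 TPM, median-of-ratios and quantile scaling, removal of the length trend (loess, span 0.5), untrended or robust variance, a block for the replicate number, array weights, a looser threshold of 0.1, and fits that each left 1 library out. Chosen after seeing the data were scaling together with length-trend removal, the length trend by longest transcript, and scaling with 1 library left out.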

Additional observations from a re-analysis of the deposited data

Results flagged for a closer look

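In 5 of 116 groups of 4 libraries, 1 library stood apart by Dixon's criterion, where chance alone gives about 5.8, and no explanation was weighed. Obese replicate 2 had Atp2a2 at 85.2 TPM, with the other obese libraries between 63.9 and 67.5 TPM. Obese replicate 1 had Orai1 at 1.73 TPM, with the others between 1.25 and 1.30 TPM. Camk2a was at 0.194 TPM in weight-cycled replicate 1, with the other weight-cycled libraries at 0 to 0.0129 TPM. Atp2a1, the SERCA pump of fast muscle, was listed at 0.00275 TPM in weight-cycled replicate 2 and at 0.0112 TPM in obese replicate 4, and at 0 in the other libraries of each group. With the others at 0, any value above 0 gives Dixon's ratio of 1, so the chance figure of 5.8 does not hold for such groups.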

How the results depend on the processing

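The values are relative TPM of unknown depth from 4 libraries a group, and the share of genes called moved with scaling and with single libraries. The fit as reported called 2044 genes. The count was 4795 with array weights, 3963 at a threshold of 0.1, 1080 with a filter at 5 TPM, 297 after quantile scaling, 269 and 342 after length-trend removal by median and by longest transcript, 150 after median-of-ratios scaling and 175 after both scaling and length-trend removal. Without a filter limma called 0 of 19482 (5686 at an unadjusted p under 0.05). Leaving out each library gave 0 to 4660, and 0 to 3015 after median-of-ratios scaling (13, 15 and 81 without obese replicate 2, weight-cycled replicate 2 and weight-cycled replicate 3). Of the 9 store genes, 3 were lower, against 6 with array weights, 5 at a threshold of 0.1, 1 after quantile scaling, and 0 without a filter, after either length-trend removal, after median-of-ratios scaling and after both (2 to 6 at an unadjusted p under 0.05). The range was 0 to 5 without each library and 0 to 3 after scaling, and 0 to 1 were higher. Of all 8127 tested genes, 1946 were lower in the fit as reported, 4499 with array weights and 124 after quantile scaling. Without weight-cycled replicate 1, 4390 of 8064 were lower. Length-trend removal gave 124 lower by median and 162 by longest transcript, and scaling alone gave 46. At an unadjusted p under 0.05 these corrected fits held 2153 to 2441 genes in either direction. Of the wider genes, 35 were lower, against 58 with array weights, 4 and 5 after length-trend removal by median and longest transcript, 4 after quantile scaling, 2 after scaling alone or with length-trend removal, 0 without a filter, and 0 to 57 without each library (0 to 26 after scaling). The 2 higher became 5 with array weights and at a threshold of 0.1, 6 after length-trend removal alone or with scaling, 4 by longest transcript and after quantile scaling, 0 without a filter, and 0 to 3 without each library (0 to 19 after scaling). Of all tested genes, 296 were higher with array weights, 145 after length-trend removal, 180 by longest transcript and 173 after quantile scaling. The 26 lower and 19 higher came without weight-cycled replicate 1, when 1404 and 1611 of all 7991 tested genes were lower and higher. The cause was not tested.

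Among ratios, Itpr1 to Itpr3 turned to 0.10 and Stim1 to Orai1 to 0.0087 after length-trend removal, and on TPM + 1 the pump to channel ratio (0.35 as reported) turned to -0.24 and Stim1 to Stim2 to -0.056. Without each library, Itpr1 to Itpr3 ranged from -0.2336 to 0.0636 and Camk2b to its relatives from -0.2526 to 0.0465. After scaling, directions reversed without weight-cycled replicate 1 for Fkbp1b at 0.0808 and Calm2 at 0.25, and for Tmbim6 at 0.0035 without weight-cycled replicate 4.

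With the replicate number as a block, 2903 of 8127 tested genes were called, 2754 as lower and 149 as higher. Among these were 4 of the store genes and 43 of the wider genes as lower, and 3 of the wider genes as higher. The labels do not say that equal numbers pair libraries, their deviations correlated at 0.21, -0.276, -0.0522 and 0.231, and no library correlated best with its own number. The Atp2a2 to Atp2a3 ratio under the block was -0.50 (exact permutation p = 0.125).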

Other observations

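Some genes of mitochondrial calcium uptake were also lower. Of the 17 genes measured, 15 were tested. At the adjusted threshold 7 were lower and 0 higher in weight-cycled islets, beside 23.9% and 1.21% of all tested genes. The median of the 15 was -0.36 against -0.26 for all tested genes. After median-of-ratios scaling limma called 0 of the 15 and their median was -0.06. At an unadjusted p under 0.05, 3 were lower and 1 higher, beside 1102 and 1339 of all 8054 genes tested after that scaling. Hspa9, a mitochondrial chaperone that links the IP3 receptor to the outer membrane channel, was at 8.31 ± 2.08 TPM in weight-cycled and 13.5 ± 1.68 TPM in obese islets, a fold change of -0.66 (SE 0.155, limma adjusted p = 0.0322). Vdac1 and Vdac2, outer membrane channels, were at -0.65 and -0.38 (limma adjusted p = 0.0340 and limma adjusted p = 0.0341), and Mfn2, which tethers mitochondria to the endoplasmic reticulum, was at -0.63 (limma adjusted p = 0.0322). After that scaling Hspa9 was at -0.36, Vdac1 at -0.34, Vdac2 at -0.06 and Mfn2 at -0.38.

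Of 15 genes that move calcium out of the cell or into the Golgi, 7 were tested and 3 were lower, beside 23.9% of all tested genes. The median of the 7 was -0.38. Atp2b1, the plasma membrane calcium pump, was at 2.72 ± 1.15 TPM in weight-cycled and 4.48 ± 0.485 TPM in obese islets, a fold change of -0.60 (SE 0.176, limma adjusted p = 0.0394). Atp2c1, the Golgi calcium and manganese pump, was at -0.51 (limma adjusted p = 0.0353), and Nptn, a partner of the plasma membrane pumps, was at -0.52 (limma adjusted p = 0.0345). After median-of-ratios scaling limma called 0 of the 7, with a median of -0.20, Atp2b1 at -0.35, Atp2c1 at -0.21 and Nptn at -0.21. At an unadjusted p under 0.05, 3 were lower and 2 higher, beside 1102 and 1339 of all 8054 genes tested after that scaling.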
